A study of Mus musculus with 5 samples.

Results

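Long intergenic non-coding RNAs (lincRNAs) are transcripts made from stretches of the genome between protein-coding genes. They are spliced and polyadenylated much as messenger RNAs are, are usually low in level and are often made in few cell types. Many are still known only as a stretch of the genome with marks of transcription. Arrays of this generation carried probes for such stretches, some of them on both strands because the direction of transcription was not always settled. In macrophages, several lincRNAs are known to respond to inflammatory signals, and c-Jun, a subunit of the transcription factor AP-1, is among the factors that act on inflammatory genes.

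The array used here carried 55681 distinct non-control probes. Of these, 16194 were designed on an interval of the mouse genome (build mm9) and not on a named transcript, and they are the probes described here. The other 39487 served as the comparison for detection. Shares of all features, given with the group differences, include the tested lincRNA probes themselves. Members were chosen by the name the array gives them, a chromosome interval with F or R for the strand, a rule that reads no signal. They fell in 3543 intervals, of which 1251 had only F probes, 1222 only R probes, 1067 probes on both strands and 3 no strand. An interval was 62 to 7128487 bp long with a median of 7304 bp and held 1 to 20 probes with a median of 3. Probes of 1 interval share that interval and often a transcript, and are not replicates. Which gene, exon or untranslated region overlaps an interval was not analysed here.

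RNA came from peritoneal macrophages of 8-week-old mice of a 129/C57Bl6 background, male or female, on 5 arrays. The 3 wild-type arrays are numbered 5, 11 and 14, and their mice were littermates kept as controls. The 2 c-Jun-deleted arrays, 1 and 9, came from cJunfl/fl LysMCre-/+ mice, in which floxed c-Jun alleles are cut by a Cre recombinase under the lysozyme 2 locus, active in macrophages and granulocytes but not in every cell of a lavage; the sample source names write Mx where the titles write LysM. Cells were washed from the peritoneum, kept in dishes overnight, and lysed after non-adherent cells had been taken off, so the preparation rests on adherence alone. Whether an array holds RNA of 1 mouse or of several is not stated in the sources used here, so the p-values speak of the spread among 5 arrays, which may be technical.

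Array 1 of the c-Jun-deleted group shared a slide and a scan with wild-type array 5, and the other 3 arrays shared the second slide. The Jun probe read 3.21, 3.75 and 3.17 in wild-type against 2.76 and 2.71 in c-Jun-deleted arrays (log2 relative to the 75th percentile of the array, the scale of all levels given here), a difference of -0.64 (SE 0.23, limma adjusted p = 0.391); where it lies relative to the floxed part was not analysed here. Lyz2, the gene whose locus drives the Cre, read 8.70, 8.76 and 9.18 against 4.46 and 8.52, so c-Jun-deleted array 1 stood apart there. All 8 tested genes of a macrophage marker list were well above background on all 5 arrays, with mean levels of 6.01 to 6.34 in the wild-type and 5.66 to 5.96 in the c-Jun-deleted arrays. Some markers of other cells also lay apart between the groups. The lowest limma adjusted p of a marker list ran from 0.199 (globin and erythroid) to 0.485 (mast cell). No gene of any marker list therefore passed the threshold used for the lincRNA probes. Of all features tested, 13.3% were higher and 20.2% lower in the c-Jun-deleted arrays without overlap. All 18 genes of a B cell list were higher in both c-Jun-deleted arrays than in any wild-type array, with a median difference of 2.42 and mean levels of 0.39 to 1.30 against 3.06 to 3.45, and 17 of the 18 were above background on all arrays. The globin and erythroid list had a median difference of 4.14 over 7 tested genes, 5 of them higher and 2 lower without overlap. Only 3 of these 7 were above background on all arrays. The large peritoneal macrophage list had a median of 1.099 over 11 (6 higher), and the mesothelial and stromal list -1.08 over 11 (7 lower). In the T and NK cell list, 2 of 16 tested genes were higher without overlap and the median difference was 0.45. In the mast cell list no gene of 7 was free of overlap at a median of 0.49, and in the neutrophil and eosinophil list 1 of 6 was lower at a median of -0.21. The counts without overlap in the T and NK, mast cell, and neutrophil and eosinophil lists did not exceed the shares of all features. The macrophage list itself had 2 higher and 4 lower genes of 8 and a median of -0.45. The part of these markers in the lincRNA differences below was not tested, and in bulk RNA more cells of a type and more RNA per cell cannot be told apart.

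Most lincRNA probes were near background in these cells. A probe is called well above background where the scanner software's gIsWellAboveBG flag is set. By that flag 40.8%, 42.8% and 36.4% of the lincRNA probes were detected on the wild-type arrays 5, 11 and 14, and 45.1% and 33.9% on the c-Jun-deleted arrays 1 and 9. The c-Jun-deleted arrays gave both the highest and the lowest share, so the groups overlapped. All other probes were detected at 59.6% to 65.9%. On no array at all were 7164 lincRNA probes (44.2%) detected, against 27.1% of the other probes, and 4714 (29.1%) were detected on all 5, against 55.7%. Detection varied little with the length of the interval: 38.8% of the probes of intervals up to 1 kb, 47.8% of those of 1 to 5 kb and 41.3% of those over 50 kb were detected on at least 2 arrays. Probes named R were detected on at least 2 arrays in 45.1% of cases and probes named F in 41.5%. By chromosome the share ran from 33.2% on chromosome 9 to 52.4% on chromosome 17.

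Detection on every array of 1 group and on none of the other was rare. On all 3 wild-type arrays but on neither c-Jun-deleted array 33 lincRNA probes were detected (0.204%, against 0.152% of the other probes), and on both c-Jun-deleted arrays but on no wild-type array 100 were (0.618%, against 0.42%). Detection on exactly 1 array was commoner, with 2018 lincRNA probes (12.5%, against 7.55%). Of these 721 were detected only on c-Jun-deleted array 1 (4.45%, against 2.16%) and 520 only on wild-type array 11 (3.21%, against 2.33%). On every array except c-Jun-deleted array 9, 428 were detected (2.64%, against 1.69%).

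Of the 8 lincRNA probes with the highest mean signal, 7 had levels that overlapped between the groups. Signal also depends on the probe, so these levels are given per probe and are no ranking of RNA amounts. Probe A_30_P01026458 (chr11:22681800-22707775, R) read 8.35, 8.14 and 8.40 in wild-type against 8.25 and 8.30 in c-Jun-deleted arrays, a difference of -0.02 (SE 0.15). Probe A_30_P01028215 (chr19:5801802-5802597, R) read 7.22, 7.02 and 6.91 against 7.19 and 7.45. The exception was A_30_P01027478 (chr5:96591892-96606467, F), at 7.74, 6.98 and 7.75 against 6.79 and 6.67. Its wild-type arrays all lay above the c-Jun-deleted arrays, by a mean of 0.76 (SE 0.29, limma adjusted p = 0.411). Among the 100 brightest lincRNA probes the steadiest was A_30_P01026611 (chr6:116123643-116124550, F), which read 6.18, 6.21 and 6.22 against 6.14 and 6.09, an SD of 0.053 over the 5 arrays. The next was A_30_P01021217 (chr14:26973425-26986650, F), at 4.61, 4.58 and 4.60 against 4.72 and 4.61. These probes show how closely 5 arrays can repeat a bright lincRNA signal.

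Over all lincRNA probes the arrays repeated less closely. The correlation of log2 levels between 2 arrays was 0.897 to 0.952 across the tested lincRNA probes and 0.957 to 0.986 across the other tested features. It was highest between both c-Jun-deleted arrays, which lie on different slides, and lowest between wild-type array 14 and c-Jun-deleted array 9, which share one; probes are not independent replicates.

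For the comparison of groups, 6991 lincRNA probes that were detected on at least 2 of the 5 arrays were tested within one limma fit of 27937 features; 21 more passed that filter but had a spot marked as an outlier. No lincRNA probe passed an adjusted p of 0.05, and 0% of all features did, with a lowest adjusted p among lincRNA probes of 0.124. At an unadjusted p below 0.05, 803 lincRNA probes differed, beside 12.1% of all features. Of them 294 were higher in the c-Jun-deleted arrays (4.21%, against 5.62% of all features) and 509 lower (7.28%, against 6.53%). Without c-Jun-deleted array 9 the count was 465 (6.65%, against 6.04% of all features), of which 94 were higher (1.34%, against 2.36%). Without c-Jun-deleted array 1 it was 741 (10.6%, against 10.9%), of which 360 were higher (5.15%, against 5.48%). Leaving out array 9 lowered the share of higher probes among the lincRNA probes and among all features.

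In 2222 lincRNA probes (31.8%, against 33.5% of all features) the groups did not overlap. Both c-Jun-deleted arrays lay above all wild-type arrays in 717 of them (10.3%, against 13.3%) and below in 1505 (21.5%, against 20.2%). This split depends on the scaling, and centring each array on its median moves the median of all features from -0.09 to 0.12. With that centring 1494 of the 6991 lincRNA probes were higher, where 23.9% of all features were. In the other direction 546 of the 6991 were lower, where 5.66% of all features were. Both directions made up 29.2% of the lincRNA probes, against 29.6% of all features. At least 2-fold apart without overlap were 566 probes (8.10%, against 8.16% of all features), made up of 189 higher (2.70%, against 3.88%) and 377 lower (5.39%, against 4.27%), and with median centring 286 were higher (4.09%, against 5.28%) and 203 lower (2.90%, against 2.29%). Among the 4699 lincRNA probes detected on all 5 arrays 73 were higher by that rule (1.55%, against 3.07% of all features so detected) and 100 lower (2.13%, against 2.17%).

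The median difference of the lincRNA probes was -0.14, against -0.09 for all features tested. The median lincRNA probe lay at 0.06, 0.02 and -0.10 in the wild-type arrays and at -0.15 and -0.11 in the c-Jun-deleted arrays, relative to the wild-type mean of each probe. Wild-type array 14 thus lay close to the c-Jun-deleted arrays, and the group difference is of the size of the wild-type spread. It was -0.21 within the first slide and -0.07 within the second, and 0.07 with median centring. For the 4699 probes detected on all arrays the median was -0.10, and for the 2292 detected on 2 to 4 arrays it was -0.37.

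Of the lincRNA probes with at least a 2-fold difference, no overlap and detection on every array of the brighter group, the 12 with the lowest p in each direction are described next. They were picked for their differences, so the values describe them. Where the dimmer group was not detected, here and below, the p also rests on readings that were not well above background. The lowest p of all belonged to A_30_P01021682 (chr5:110964854-110965222, F), which read -6.85, -6.71 and -6.54 in wild-type against -3.82 and -3.72 in c-Jun-deleted arrays. None of the wild-type arrays had it well above background, and its c-Jun-deleted level was at least 2.15-fold higher (limma adjusted p = 0.124). Such a bound sets the brighter group's mean against, on each array of the dimmer group, the lowest signal called above background or the probe's own, whichever is higher. Similar bounds held for A_30_P01031333 (chr13:12792150-12869825, F), at -4.94, -4.70 and -5.22 against -3.17 and -2.61 and at least 3.72-fold higher, for A_30_P01022926 (chr19:61226425-61270975, F), at least 3.14-fold, for A_30_P01025768 (chrX:100756245-100819095, R), at least 3.10-fold, and for A_30_P01022667 (chr14:8576576-8624104, R), at least 1.60-fold. In each of these the c-Jun-deleted arrays were both detected and no wild-type array was.

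The remaining 7 were detected on at least 1 wild-type array. Probe A_30_P01020307 (chr15:85298353-85298992, F) read -0.81, -0.89 and -1.25 against 0.63 and 0.52, a difference of 1.56 (SE 0.19, limma adjusted p = 0.212). Probe A_30_P01024145 (chr17:29378878-29379589, F) read -1.32, -1.88 and -2.05 against 0.10 and 0.25, a difference of 1.93 (SE 0.26). Probe A_30_P01033229 (chr3:87757295-87774970, F) read -1.84, -2.16 and -2.29 against -0.24 and -0.50. In all 3 the gap between the groups was wider than the range within either. The others were A_30_P01019611 (chr7:82902248-82955248, F) with a difference of 1.75, A_30_P01017728 (chr13:24615451-24615973, F) with 1.65, A_30_P01030606 on chromosome 18 with 1.43 and A_30_P01028615 (chr5:144519149-144527843, F) with 1.15. On the interval of A_30_P01019611 lies another F probe, A_30_P01024756, that was among the steadiest bright ones, at 5.45, 5.29 and 5.35 against 5.51 and 5.34, so 2 probes of the same interval and strand behaved differently.

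In the other direction the lowest p belonged to A_30_P01025373 (chr13:37633225-37640309, F), at -4.64, -4.62 and -4.75 in wild-type against -6.84 and -6.81 in c-Jun-deleted arrays. It was detected on every wild-type array and on no c-Jun-deleted array, and its wild-type level was at least 1.40-fold higher (limma adjusted p = 0.124). Probe A_30_P01031733 (chr17:33995525-34028025, F) read -4.13, -4.33 and -3.44 against -6.38 and -6.00, at least 2.28-fold higher in wild-type, and A_30_P01025986 (chr11:59189157-59220607, F) read -3.56, -4.07 and -3.78 against -5.45 and -5.17, at least 2.27-fold. A_30_P01030780 (chr7:91300649-91302183, F) was at least 1.94-fold, A_30_P01025042 (chr16:93121505-93142255, F) at least 1.52-fold and A_30_P01028071 (chr17:56691095-56693810, R) at least 1.47-fold higher in wild-type. Only A_30_P01023983 (chr16:59557120-59602070, R) among the 12 was detected on all 5 arrays, at -2.95, -2.92 and -2.63 against -4.04 and -3.80, a difference of -1.08 (SE 0.18, limma adjusted p = 0.222). The last 5 were detected on 1 of the c-Jun-deleted arrays, with differences from -1.11 in A_30_P01019982 (chr10:72726649-72799726, R) and -1.14 in A_30_P01020431 (chr3:51784862-51793999, F) to -1.20 in A_30_P01031008 (chr12:3406750-3425850, F), -1.40 in A_30_P01031110 (chr6:5311375-5328075, F) and -2.03 in A_30_P01021302 (chr1:88339354-88345004, R).

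Centring on the median, in place of the 75th percentile, put 17 lincRNA probes (0.243%, against 0.669% of all features, or 187) past an adjusted p of 0.05 in limma, 14 higher and 3 lower. Of these, 9 higher and 2 lower ones were among the 24 above. The others included A_30_P01024775 (chr19:53517903-53540753, F), with a difference of 2.42 on that scale and 2.20 on the main one, A_30_P01026171 (chr1:182438908-182449858, R), with 2.29 and 2.08, and A_30_P01018434 (chr8:56200419-56205756, F), which was detected on 2 wild-type arrays and on no c-Jun-deleted array, at least 1.37-fold higher in wild-type. The highest adjusted p among the 17 on that scale was 0.0499 and the lowest 0.0457, so all lie just under the threshold. Some of the 17, among them A_30_P01021682 and A_30_P01025373, were not detected on any array of the dimmer group.

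The largest bounds are a separate case. After A_30_P01031333, the next 4 bounds of higher signal rested on c-Jun-deleted array 9 alone. Probe A_30_P01029252 (chr5:23195569-23218551, R) read -7.08, -5.70 and -5.78 in wild-type, -5.26 in c-Jun-deleted array 1 and -0.80 in array 9. Probe A_30_P01020047 (chr10:94900849-94928059, R) read -5.70, -5.34 and -6.35 in wild-type, -5.33 in array 1 and -0.81 in array 9. For A_30_P01030481 (chr5:123582742-123588117, R), at -5.39, -5.17 and -6.78 against -5.63 and -0.50, and A_30_P01024621 (chr4:131734714-131741964, F), at -4.77, -5.15 and -5.63 against -5.41 and -0.79, the groups overlapped. None of the 4 was well above background on a wild-type array, and array 1 read far below array 9 in all of them, so no difference or bound is given. In the lower direction A_30_P01031649 (chr2:67412478-67412959, F) read -3.57, -3.25 and -1.53 against -6.51 and -6.70, at least 5.18-fold higher in wild-type (limma adjusted p = 0.224). Probe A_30_P01032069 (chr16:40471828-40472481, F) read -3.52, -2.15 and -2.34 against -6.14 and -4.21, at least 5.05-fold. The next were A_30_P01030450 (chr8:87504644-87513694, F), at least 4.16-fold, A_30_P01026590 (chr11:95644899-95658549, R), at least 2.94-fold, and A_30_P01018405 (chr1:64686823-64728598, F), at least 2.92-fold.

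Intervals with several tested probes show whether neighbouring probes repeat a difference. Of 1595 intervals with at least 2 tested probes, all differences were above 0 in 215, all below 0 in 595, and of both signs in 785. All tested probes were higher without overlap in 45 intervals (2.82%) and lower without overlap in 68 (4.26%), shares of intervals for which the other features have no counterpart. In 105 intervals at least 1 probe was higher and another lower, both without overlap. On the same strand of an interval the first 2 tested probes had the same sign in 1267 of 1792 cases (70.7%), with r = 0.34 between their differences. Since most differences lay below 0, unrelated probes with the same shares below 0 would have the same sign in 54.2%. The mean differences of opposite strands had the same sign in 431 of 672 intervals (64.1%, beside 60.2% from the shares below 0 alone), with r = 0.0787. Where both strands were detected on all 5 arrays this held for 271 of 413 intervals (65.6%, beside 58.2%), with r = 0.174. These correlations are across intervals of the same 5 arrays and share their scaling. Of the 1067 intervals with probes on both strands, 674 had a probe detected on at least 2 arrays on each strand, 145 only on F, 167 only on R and 81 on neither.

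The interval with the most probes lower without overlap was chr1:175654606-175672031, of 17426 bp, where 5 F and 5 R probes were tested and all 10 were lower. The mean of the 5 R probes read 3.41, 3.70 and 3.59 in wild-type against 2.92 and 2.58 in c-Jun-deleted arrays. The mean of the 5 F probes read -2.71, -2.44 and -2.70 against -3.25 and -3.75. Differences of the 10 probes ran from -1.06 to -0.70 with a mean of -0.85, and those of the F and R probes averaged -0.88 and -0.81. All 10 had an unadjusted p below 0.05, and the lowest adjusted p in limma was 0.227. Both strands were thus lower by a like amount, at signals far apart.

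In chr19:56820850-56837925, of 17076 bp, 2 R probes averaged 5.03, 4.76 and 5.46 in wild-type against 3.92 and 3.17 in c-Jun-deleted arrays, and 2 F probes -0.96, -1.24 and -0.95 against -1.98 and -2.43. The differences ran from -1.59 to -1.11 (lowest limma adjusted p = 0.227). In chr16:93121505-93142255 all 6 tested probes were lower by a mean of 1.68, but c-Jun-deleted array 9 stood apart from the other 4: the 5 R probes averaged -0.38, 0.57 and 0.74 in wild-type, -0.70 in array 1 and -2.10 in array 9. Without array 9 the mean difference was -1.12 and within the first slide -0.52. In chr17:71183978-71185384 the 3 F probes averaged -1.94, -0.94 and -1.70 against -2.43 and -3.14. The smallest shift was in chr5:113920850-113950200, whose 4 probes averaged -3.22, -3.20 and -3.14 against -3.83 and -3.64, and only 1 of them had an unadjusted p below 0.05.

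In the higher direction no interval had more than 4 tested probes that were all free of overlap. In chr2:174428737-174439062, of 10326 bp, 3 R probes averaged -3.24, -2.60 and -3.86 in wild-type against -1.56 and -1.05 in c-Jun-deleted arrays, a mean difference of 1.93, and the 1 F probe, which no wild-type array had well above background, was at least 1.36-fold higher. In chr1:85300475-85331475 the 4 R probes averaged -4.46, -4.20 and -5.04 against -3.79 and -3.27, and 1 of them was above background on all 5 arrays. In chr10:83980790-83986015 4 R probes averaged -3.68, -4.34 and -4.34 against -3.20 and -3.01, with 2 of them above background on all 5 arrays. In chr1:87374975-87412500 1 F and 3 R probes averaged -5.00, -4.40 and -4.58 against -3.67 and -3.77, with 1 so detected. The shortest, chr5:110964854-110965222 of 369 bp, holds A_30_P01021682 and 2 more F probes. Its 3 probes averaged -5.93, -5.34 and -6.30 against -3.71 and -3.23 and were not all detected on any wild-type array. The lowest adjusted p in these 5 intervals ran from 0.124 to 0.294 (limma).

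In several places 1 array stood apart from the other 4 by at least 1 log2 unit over neighbouring probes, and these places were picked after their values were seen. Wild-type array 11 was apart and high on 162 lincRNA probes (2.32%, against 2.36% of all features), wild-type array 14 on 176 (2.52%, against 1.46%), c-Jun-deleted array 9 on 112 (1.60%, against 1.29%) and wild-type array 5 on 84 (1.20%, against 0.82%). C-Jun-deleted array 1 was apart and high on 1 (0.0143%, against 0.0644%) and apart and low on 130 (1.86%, against 1.13%). Wild-type array 14 was apart and low on 122 (1.75%, against 1.72%) and c-Jun-deleted array 9 on 107 (1.53%, against 1.55%). Wild-type arrays 11 and 5 were so on 48 (0.687%, against 1.18%) and 14 (0.2%, against 0.186%). On chr17:84470764-84489215 the 5 R probes averaged -1.65, 1.103 and -1.25 in wild-type against -1.77 and -2.84 in c-Jun-deleted arrays, so that array 11 was the highest and c-Jun-deleted array 9 the lowest. Nearby, 3 F probes of chr17:84397891-84412748 averaged -3.16, -1.15 and -1.75 against -2.58 and -5.42. On chr10:117021051-117038683 the 6 F probes averaged -3.92, -2.62 and -3.85 against -4.14 and -4.02. On chr16:84702353-84710928 7 F probes averaged -3.77, -2.38 and -3.38 against -3.64 and -4.24.

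Wild-type array 14 was the low one in another 2 places. On chr19:53517903-53540753 10 R probes averaged -2.96, -2.67 and -4.74 in wild-type against -1.37 and -0.76 in c-Jun-deleted arrays, and 9 of the 10 were higher without overlap. On chr8:26212577-26218527 5 R probes averaged -1.83, -1.50 and -3.02 against 0.08 and 0.81, with a mean difference of 2.56 and a lowest adjusted p of 0.232 (limma), and all 5 were detected on every array. The 2 F probes of that place differed by -0.62 and 0.43. The mean level of the B cell list was likewise lowest in array 14 (0.39) and highest in c-Jun-deleted array 9 (3.45). The same order held for the globin and erythroid list (-4.61 and -0.78) and for a list of named long non-coding RNA genes (-0.69 and -0.15). The other marker lists did not have that order. The part of any list in these values was not tested.

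By chromosome, wild-type array 11 was apart and high most often on chromosome 17, on 25 of 471 tested lincRNA probes (5.31%), and on chromosome 10, on 13 of 256 (5.08%). On the X chromosome it was apart and high on 10 of 245 (4.08%) and apart and low on 3 (1.22%). Over all chromosomes the shares were 2.32% high and 0.687% low, against 2.36% and 1.18% of all features. The features other than lincRNA probes were not counted by chromosome. The largest gap on the X chromosome was in A_30_P01021770 (chrX:121004130-121007360, R), at -5.68, -1.64 and -5.93 in wild-type against -5.58 and -6.71 in c-Jun-deleted arrays. In the same stretch A_30_P01033126 (chrX:120976609-120977281, F) read -2.90, 0.05 and -2.44 against -3.25 and -2.60, and A_30_P01023002 (chrX:120812236-121038407, R) -3.16, -0.26 and -3.18 against -3.33 and -2.86. Xist, the RNA that coats the silenced X chromosome in female cells, read 0.20, -4.53 and -0.04 against 0.57 and 0.74, so array 11 was the low one there. The sex of the mouse behind each array is not given in the labels used here, and its part in these values was not tested.

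Long non-coding RNA genes that have names were measured by other probes and give a comparison. Of 69 listed, 36 had a probe with a matching symbol and 25 were tested. None passed an adjusted p of 0.05 in limma, and 4 of the 25 had an unadjusted p below 0.05, all higher in c-Jun-deleted arrays. At that p 5.62% of all features were higher and 6.53% lower. In 9 the c-Jun-deleted arrays were higher and in 2 lower without overlap, beside 13.3% and 20.2% of all features, and the median difference was 0.30. Mirt1 read -0.94, -0.84 and -2.36 against 0.91 and 1.51, a difference of 2.59 (SE 0.55, adjusted p = 0.242). Morrbid, which restrains the pro-death gene Bcl2l11 in short-lived myeloid cells, read -3.88, -3.26 and -3.32 against -2.78 and -2.83. Pvt1, the neighbour of Myc, read -0.59, -0.44 and -0.92 against -0.25 and 0.21, and Rmrp, the RNA of the RNase MRP enzyme, -1.46, -1.79 and -1.99 against -0.53 and -1.32. Neat1, the scaffold of nuclear paraspeckles, read 6.75, 6.45 and 6.44 against 6.65 and 6.67. Over all 430 tested genes that RefSeq classes as long non-coding, 15.6% were higher and 19.5% lower without overlap, and over 14079 protein-coding genes 13.6% and 20.4%.

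The authors' deposited table of group means listed 1709 probes, of which 299 (17.5%) were lincRNA probes, whereas 29.1% of all distinct probes were. That 29.1% also counts probes detected on no array. Of 32820 probes detected on at least 2 arrays, 7012 were lincRNA probes. The part of detection in the lower share was not tested. By the authors' deposited values, 155 of the 299 were higher and 144 lower in c-Jun-deleted cells, and the smallest difference in size was 1.003 on the log2 scale. All 299 differences in the authors' deposited table lay within 0.001 of those computed here from 3 wild-type arrays, although its header lists 1 wild-type array more. Of the 299, 271 passed the detection filter used here, and in all 271 the groups did not overlap.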

How the data were processed

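Each array was hybridised with Cy3-labelled cRNA from 50 ng of total RNA, per the labels' protocols. Intensity values (gProcessedSignal, background-subtracted) were made by the authors with Agilent Feature Extraction 11.5.1.1 on an mm9 grid, per the file headers. The authors' deposited table holds log2 group means after a shift to the 75th percentile, per its header. Here, log2 intensity was set against the 75th percentile of each array's non-control spots (437 to 596 units). Spots marked as outliers were left out (256 probes). Features well above background on at least 2 arrays were kept. A gene with several probes was taken as its brightest, and interval probes were kept singly. Groups were compared with limma 3.58.1 (R 4.3.3; lmFit, eBayes, Benjamini-Hochberg over 27937 features); an exact permutation of 3 against 2 arrays cannot go below 0.1. On simulated data with 27937 features, 86% of 2-fold changes and 100% of larger ones were recovered, with 3 false calls. The simulated spread was the same for every feature, the median of the wild-type SDs. These rates therefore cannot say how many changes would be recovered in probes of wider spread. Symbols came from RefSeq (GRCm38.p6). Members and lists were chosen with earlier results of these data known. Named probes are the 12 lowest p in each direction (at least 2-fold, no overlap, brighter group detected), the 8 highest means, the 6 lowest SDs among the 100 highest means, the 5 largest bounds and the 5 intervals with most probes free of overlap in each direction. Precision is limited by the number of arrays. Probe sequences were not used here.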

Additional observations from a re-analysis of the deposited data

How the results depend on the processing

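Under all alternatives that allow a test, other than median centring, no lincRNA probe passed an adjusted p of 0.05 in limma; median centring gave 17. The median difference, -0.14, turned to 0.072 with median centring and was -0.033 after quantile normalization and -0.027 after normexp with quantile normalization (on median spot and background signals). It was 1.044 in the authors' deposited table, which lists only probes at least 2-fold apart. With normexp 103 probes (1.47%, against 3.28% of all features) were at least 2-fold apart without overlap, against 566. Without a filter on dim probes 16158 were tested, with a median of -0.26 and 3436 free of overlap (21.3%, against 24.9%). Of these, 1143 were 2-fold apart (7.07%, against 7.45%), and 1288 intervals lay on one side. In that setting 1 named lncRNA gene had an unadjusted p below 0.05, beside 7.53% of all features. In the main setting 4 did, beside 12.1%. Among probes above background on all 5 arrays 1481 were free of overlap (31.5%, against 33.6%) and 173 of them 2-fold apart (3.68%, against 5.24%). The gIsPosAndSignif flag, a laxer rule, put 12580 lincRNA probes above background on 2 or more arrays, against 7012, and both strands of 1000 intervals, against 674 (this second use was chosen after seeing the data).

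Within slide 2 (3 arrays) 446 probes had an unadjusted p below 0.05 (6.38%, against 6.55% of all features), 4833 were free of overlap (69.1%, against 70.4%), 1086 of them 2-fold apart (15.5%, against 15%), and 2 named lncRNA genes had such a p. Within slide 1 the mast cell list turned to -0.29, the neutrophil and eosinophil list to 0.27, and 2 probes not above background in wild-type turned, A_30_P01030481 to -0.24 and A_30_P01024621 to -0.64. The source names give some mice of both groups the same number. With it as a replicate block 1047 probes had an unadjusted p below 0.05 (15%, against 12.2%), 1 named lncRNA gene did, and the neutrophil and eosinophil list was at 0.15. Arrays of the same number also share a slide, so number and slide cannot be told apart. Whether the number pairs the mice could not be checked from the data, since the deviations of 2 c-Jun-deleted arrays from their mean mirror each other.

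Leaving out 1 array at a time gave 465 (without c-Jun-deleted array 9; 6.65%, against 6.04% of all features) to 1047 probes (without wild-type array 11; 15%, against 16.1%) at an unadjusted p below 0.05, 2974 (42.5%, against 44.0%) to 4008 (57.3%, against 60.9%) free of overlap, 667 (9.54%, against 9.77%) to 1006 (14.4%, against 13.7%) of them 2-fold apart, and 2 to 7 named lncRNA genes. The neutrophil and eosinophil list ran from -0.84 to 0.24 and A_30_P01024621 from -0.22 to 4.40. With fewer arrays groups overlap less by construction; the cause of the other changes was not tested. The slide as a block, flagged spots kept and the percentile over detected probes moved no count of lincRNA probes by over 1.5 times. Precision is limited by the number of arrays and, for most of these probes, by signals near background.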

Other observations

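Where intervals overlap, they were joined into 2226 places, 784 of which hold 2 or more intervals; the places below were picked after their values were seen, as the 11 with at least 10 probes free of overlap in one direction. Of these, chr1:175653557-175672031 (15 of 16 lower) and chr19:53517903-53540753 (11 of 16 higher and 1 lower) hold intervals described above. On chr1:85300475-85337483, of 37009 bp, all 12 tested probes were higher in c-Jun-deleted arrays. They include the 4 R probes of chr1:85300475-85331475 described above. Its 10 R probes averaged -3.58, -2.80 and -3.52 in wild-type against -1.87 and -1.46 in c-Jun-deleted arrays, a mean difference of 1.63. Only 4 of these 10 were above background on all 5 arrays. On chr17:39960567-39992817 16 of 19 tested probes were higher, with small differences of 0.20 to 0.51. Only 1 of the 19 had an unadjusted p below 0.05 in limma. Levels there averaged 3.87, 3.83 and 3.60 against 4.04 and 4.21. On chrX:54627918-54638568 11 of 12 were higher, at -1.54, -1.58 and -1.89 against -1.33 and -0.81. On chr8:72663591-72673010 14 of 21 were higher and 1 lower, and only 2 had an unadjusted p below 0.05.

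In the lower direction chr14:62254361-62308286 had 15 of 19 tested probes lower, and 6 had an unadjusted p below 0.05 in limma. The 19 averaged -1.98, -1.79 and -2.09 in wild-type against -2.34 and -2.38 in c-Jun-deleted arrays. On chr16:59556175-59603176 the 13 R probes averaged -1.65, -1.89 and -1.42 against -2.41 and -2.30, and 9 of them were lower without overlap. They include A_30_P01023983, described above. The 5 F probes there averaged -3.33, -2.93 and -3.50 against -2.98 and -3.56, with differences from -0.72 to 0.84, and 1 of them was higher and 1 lower without overlap. The strands were not tested against each other. On chr8:119732348-119749198 11 of 20 probes were lower, on chr13:94180737-94203935 12 of 22 were lower and 2 higher, and on chr14:65430484-65437902 11 of 23 were lower and 1 higher. In these places 5, 9 and 3 probes had an unadjusted p below 0.05 in limma. The lowest adjusted p in any of these 11 places was 0.217 (limma), on chr16:59556175-59603176 and chr19:53517903-53540753.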
